A study of Arabidopsis thaliana with 91 samples.

Results

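The genes described here are the 9 Arabidopsis thaliana genes for demethylases of lysine 4 of histone H3 (H3K4), chosen by locus out of 27444 nuclear protein-coding genes. They are JMJ14 (AT4G20400), JMJ15 (AT2G34880), JMJ16 (AT1G08620), JMJ17 (AT1G63490), JMJ18 (AT1G30810), LDL1 (AT1G62830), LDL2 (AT3G13682), LDL3 (AT4G16310) and FLD (AT3G10390). Each gene was taken as its span in the TAIR10 genome with 1 kb upstream of its start, and each ChIP-seq peak list was searched for peaks that overlapped this region. No measured value was used to choose the genes.

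H3K4 methylation is written by SET-domain methyltransferases, among them SDG2, and removed by a pair of enzyme families. The JmjC proteins JMJ14 to JMJ18 use iron and 2-oxoglutarate and can act on trimethylated lysine (H3K4me3), the form found over the starts of transcribed genes. LDL1, LDL2, LDL3 and FLD are relatives of human LSD1, use FAD, and by their chemistry act on mono- and dimethylated lysine only. In leaves, JMJ14 represses the florigen gene FT and works with the transcription factors NAC050 and NAC052 and with TRB proteins, which bind telobox DNA. JMJ16 restrains leaf senescence, JMJ17 acts in the response to dehydration, and JMJ18 promotes flowering from phloem companion cells. FLD, LDL1 and LDL2 repress the flowering repressor FLC, and LDL3 acts on H3K4me2.

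Leaf tissue of Col-0 plants, 4 to 5 weeks old, was used throughout, and 50 peak lists from 91 samples of the series were available for this description. H3K4me3 was profiled in 29 libraries: SDG2-ZF plants (3 libraries), in which the UBQ10 promoter drives the SDG2 catalytic domain fused to the zinc finger ZF108 aimed at FWA, with Col0 of the same set (SET1, 2); SunTag-SDG2_rdr6 (2), which brings the same domain by dCas9 in the rdr6 mutant, with a line lacking guides (noguideSDG2_rdr6, 1) and rdr6 (2); SDG2-ZF_rdd (2), in the ros1 dml2 dml3 triple mutant that lacks DNA demethylases, with rdd (2); SDG2(H1866K)cd (4), a fusion with a changed catalytic residue, with Col0 of SET11 (2); TRBIP1-ZF (2), a JMJ14 partner fused to ZF108 in the fwa epimutant, with fwa (2); and TRBIP1-dCAS9-MQ1v (2), which joins TRBIP1 to dCas9 and a bacterial DNA methyltransferase, with dCAS9-MQ1v (1) and fwaxrdr6 (2). Both dCas9-MQ1v constructs were placed in fwaxrdr6 plants, the fwa epimutant that also carries the rdr6 mutation. Other lists were made for H3K14ac (6) and the histone variant H2A.Z (7), from Col0, SDG2-ZF, rdd and SDG2-ZF_rdd plants. The Myc tag had 8 lists, from Myc-ROS1 and Myc-JMJ14 plants, each with and without a zinc finger fusion, and 1 untagged Col0. The libraries carry set numbers, each comparison of levels was made against controls of its own set or sets, and the labels do not name separate cultures or lines, so that p-values measure the spread between these libraries.

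The H3K4me3 lists held 9647 to 28847 peaks each, the H3K14ac lists 5635 to 24156, the H2A.Z lists 12217 to 30556 and the Myc lists 808 to 14212. Read depth is not in the lists, and the lowest −log10 q in a list was at least 2 in 23 of the 50 lists and lower in 27, so an absent peak says only that none passed that list's threshold. Of the leaf markers RBCS1A, LHCB1.1 and CA1, CA1 and RBCS1A had H3K4me3 in 29 of 29 lists and LHCB1.1 in 21. The seed gene OLEO1 also had it in 29 lists, and the pollen, root and other seed markers in 1 to 6. The 7 libraries of SET6, which include rdd and SDG2-ZF_rdd replicate 1, stood apart at 3 of the genes described here, as set out below. Some of the values that change without them are given both ways. The 6 SET11 libraries had low peak folds. To compare lists, the highest peak fold (enrichment over the local background, from MACS2) in a gene's region was turned into a rank, the percent of the 27444 genes with a lower value in the same list, with 0 for no peak.

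H3K4me3 peaks lay over or shortly past the start of 8 of the 9 genes in most leaf libraries, and no H3K4me3 peak was called at JMJ15. Peaks were found in 29 of 29 lists at JMJ14, LDL1, LDL2 and FLD, in 28 at JMJ18 and LDL3, in 26 at JMJ16, in 24 at JMJ17 and in 0 at JMJ15 (MEE27 in RefSeq). Over all coding genes, 30.7% had a peak in all 29 lists and 14.8% had none in any.

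Among the LSD1-type genes the ranks were high. FLD, at chr3:3229060-3232531 on the plus strand, had ranks of 39.39 to 97.35 with a median of 88.77, and a median fold of 6.53. LDL2 (chr3:4478873-4481767, minus strand) ranged over 52.79 to 93.39 with a median rank of 82.15. LDL3 (chr4:9217988-9226280, plus strand) ranged over 0 to 91.73 with a median of 81.10, and its single 0 was the shallow list of SDG2(H1866K)cd replicate 3, with 9647 peaks. LDL1 (chr1:23264486-23267221, minus strand), a gene of 1 exon, ranged over 58.00 to 96.94 with a median of 77.40. These spreads overlapped widely, so the order of the 4 genes was not resolved by single libraries.

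The JmjC genes sat lower. JMJ14 (chr4:11008558-11013860, plus strand) had ranks of 39.86 to 86.99 with a median of 55.88 and a median fold of 4.57. JMJ18 (chr1:10936765-10942292, minus strand) ranged over 0 to 86.35 with a median of 54.27. JMJ16 (chr1:2736656-2743881, plus strand) ranged over 0 to 58.43 with a median of 46.09, and JMJ17 (chr1:23544554-23553232, minus strand) over 0 to 78.99 with a median of 41.02. Without the SET6 libraries the medians of JMJ14, JMJ16, JMJ17 and JMJ18 were 55.84, 46.09, 40.88 and 54.23, while the highest rank of JMJ17 was 49.63 and that of JMJ18 was 66.51. Neighbours in this order overlapped in their ranges.

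**Figure D1:**
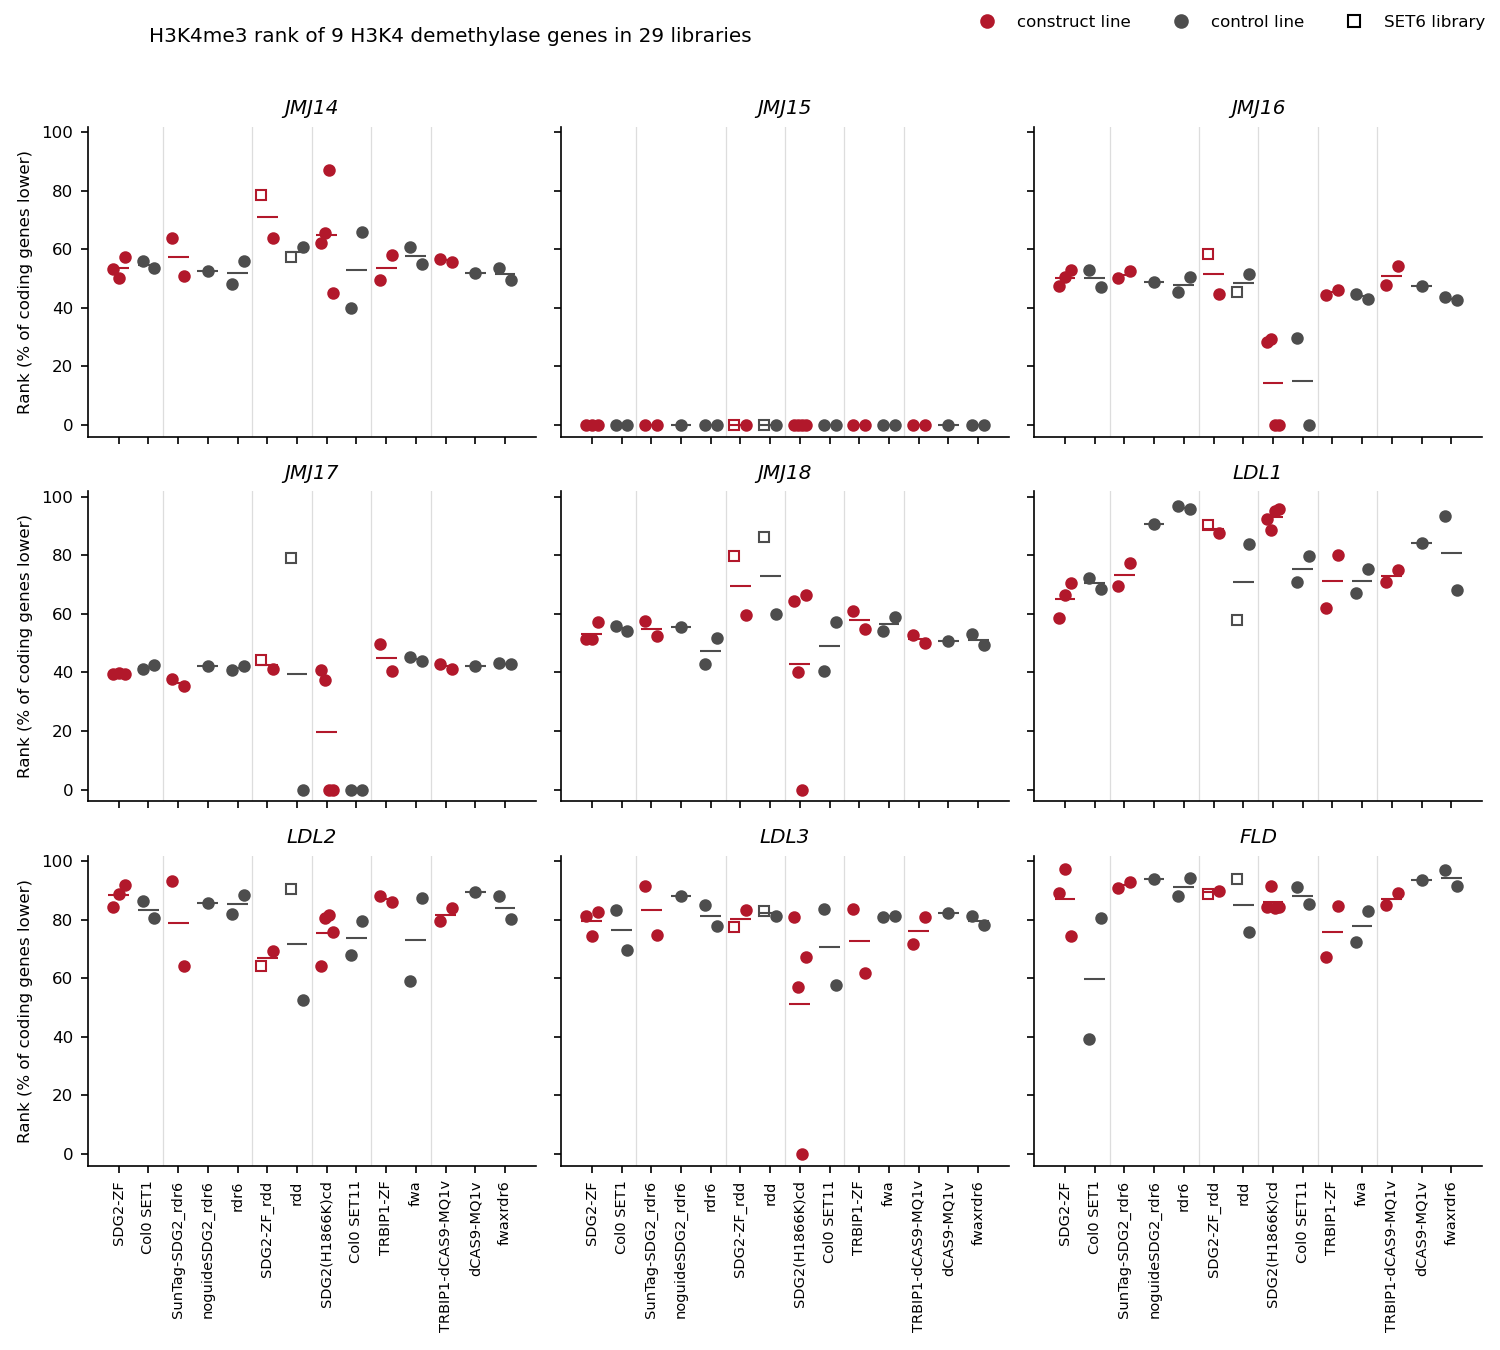
H3K4me3 rank (percent of coding genes with a lower peak fold in the same list) of each gene in 29 libraries, by line. Points are libraries, bars are group means, open squares are SET6 libraries, and vertical lines part the comparisons. JMJ15 lies at 0 in every library, and JMJ17 and JMJ18 have their highest group values in SET6 squares at 78.99 and 86.35.

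The peak over the start was of ordinary shape in most genes, but not in all. The median peak of LDL1 ran from −71 to 815 bp of the annotated start, that of LDL2 from −33 to 793 bp, that of LDL3 from −20 to 680 bp and that of JMJ17 from 22 to 461 bp. At FLD it ran from −875 to 720 bp with a median length of 1601 bp, and there the start of SEC8, a divergent neighbour, lies 26 bp upstream, so the peak belongs to both genes. At JMJ14 the peak began inside the gene, at 150 bp, with its summit at 480 bp, over untranslated exons, introns and the first coding exons. At JMJ18 it began at 387 bp and ended at 1393 bp, with its summit at 930 bp. In that gene the annotated start is followed by untranslated exons, and a peak within 500 bp of the start was found in 21 lists.

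At JMJ16 and JMJ18 some peaks in the region lay at or shortly past the starts of neighbouring genes. JMJ16 had its own peak past the start in 23 of 29 lists (median 63 to 846 bp), and a separate peak upstream of it in 24 lists (median −1375 to −812 bp, fold 1.34 to 5.19), where AT1G08610 starts on the other strand, at −837 bp. JMJ18 had a peak over its 3′ part in 23 of 29 H3K4me3 lists (median 4640 to 5273 bp, fold 1.53 to 3.82), in 5 of 6 H3K14ac lists and in 7 of 7 H2A.Z lists. That stretch lies inside AT1G30800, which runs the other way and starts 5369 bp past the JMJ18 start. Peaks there could not be told apart by gene.

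TRB proteins, partners of JMJ14 and of TRBIP1, are known to bind the telobox, and so the members were searched for its letters AAACCCTA on both strands. None of the 9 had it from 250 bases before to 50 bases after the start, where 6.22% of coding genes had it. Over the whole gene region 5 of 9 had it, against 36.53% of coding genes. The same 5 had it in the first 700 bases past the start, against 20.15%. That last window was chosen after the positions had been seen, so its share cannot be weighed against that of all genes. No test was made. The 5 sites printed here are those that lie outside untranslated exons, under peaks of H3K4me3 near the start, with the telobox in capitals and each read along the strand of its gene.
JMJ14 intron, chr4:11008869-11008898, plus strand: ctgggttttttTAGGGTTTcgaaaacggca
JMJ17 intron, chr1:23553091-23553120, minus strand: aaatttactaaAAACCCTAgaattgcaatt
LDL1 coding exon, chr1:23266655-23266684, minus strand: cgcaatgtcggTAGGGTTTccggtttattc
LDL1 coding exon, chr1:23266810-23266839, minus strand: caacaatcacaAAACCCTAatgcggcggag
LDL3 intron, chr4:9218204-9218233, plus strand: tgaggttttgtAAACCCTAaatccagtttt
An H3K4me3 peak lay over the JMJ14 site, 322 bp past the start, in 25 of 29 lists, over the JMJ17 site (123 bp) in 24, over the LDL1 sites (393 and 548 bp) in 29 and over the LDL3 site (227 bp) in 28. JMJ16, the other gene with the letters in this window, had them at 558 and 664 bp in an untranslated exon. A match of letters is not a measured binding site. Of the 8 Myc lists, which carry Myc-JMJ14 or Myc-ROS1 or no tag, 1 had a peak over the JMJ14 site, 0 over those of LDL1 and 3 over those of JMJ17 and LDL3. Those 3 were SET6 libraries, the untagged one among them.

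Compared with their own-set controls, the lines that carry active SDG2 did not differ at any demethylase gene by the test. The comparison asks whether placing an H3K4 methyltransferase at FWA and at off-target sites moved H3K4me3 at the genes whose products remove the mark. FLD had ranks of 89.27, 97.35 and 74.55 in SDG2-ZF and of 39.39 and 80.53 in Col0 of SET1. In SunTag-SDG2_rdr6 it had 90.79 and 92.96, against 88.05 and 94.41 in rdr6. In SDG2-ZF_rdd it had 88.77 and 89.97, against 94.10 and 75.74 in rdd. The low value was thus 1 library, Col0 SET1 replicate 1, and the groups overlapped in every background. The limma fit with set as a term gave FLD a difference of 11.8 rank points (SE 7.23, 95% interval −4.08 to 27.6, adjusted p = 0.538). Without Col0 SET1 replicate 1 it was 3.63 (adjusted p = 0.816).

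JMJ14 had ranks of 53.30, 50.34 and 57.26 in SDG2-ZF and of 56.02 and 53.59 in Col0. It had 63.79 and 50.91 in SunTag-SDG2_rdr6, against 48.04 and 55.88 in rdr6, and 78.50 and 63.76 in SDG2-ZF_rdd, against 57.24 and 60.81 in rdd. Of these 3 pairs of groups, the ranks overlapped in the first 2 and did not in the rdd pair, where the higher line library (78.50) was of SET6. Its fitted difference was 5.03 (SE 3.84, 95% interval −3.38 to 13.4, adjusted p = 0.629). LDL1 had ranks of 69.54 and 77.40 in SunTag-SDG2_rdr6, against 96.94 and 95.69 in rdr6. It had 90.34 and 87.78 in SDG2-ZF_rdd, against 58.00 and 84.05 in rdd. Both line libraries were thus below the controls in the rdr6 pair and above them in the rdd pair. In SDG2-ZF it had 58.48, 66.30 and 70.47, against 72.18 and 68.65 in Col0. The library without guides, which carries the SunTag construct but is not aimed at FWA, had 90.62. The fit put LDL1 at −3.50 (SE 6.14, 95% interval −16.9 to 9.95, adjusted p = 0.857), and at −10.1 without SET6 (95% interval −20.5 to 0.23, adjusted p = 0.396).

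For the other 5 tested genes the differences lay between −1.71 (LDL2) and 2.04 (JMJ16), with adjusted p between 0.834 and 0.961. JMJ15 had no peak and was not tested. By Benjamini-Hochberg adjusted p, 0 of the 8 members tested passed 0.05, against 0.813% of the 19806 genes tested (159 higher and 2 lower), and 0 had an unadjusted p under 0.05, against 2467 genes. The median difference of the 8 members was 0.85 and that of all genes tested was 1.22. Without SET6, 64 genes were higher and 1 lower of 19519 tested, 0 of them members. The median differences were then 2.16 for the members and 1.26 for all genes tested. The widths of the intervals are what these libraries allow. They do not show that the levels were the same.

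Counts of members whose ranks did not overlap between groups are read against the same share over all genes. In SDG2-ZF against Col0 of SET1, 1 of 8 members (JMJ17) did not overlap, against 30.8% of the genes. In SunTag-SDG2_rdr6 against rdr6 it was 3 of 8 (JMJ18 higher, JMJ17 and LDL1 lower), against 35.8%. In SDG2-ZF_rdd against rdd it was 2 of 8 (JMJ14 and LDL1 higher), against 31.2%.

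The effect of SDG2-ZF was also set against the background, rdd over Col0. Among the members the largest difference was that of LDL1, for which the effect in rdd exceeded that in Col0 by 23.4 rank points (SE 10.6, 95% interval −2.25 to 49.0, adjusted p = 0.683). JMJ14 had 13.3 (adjusted p = 0.685) and FLD −22.6 (adjusted p = 0.76). None of the 8 passed, against 1.46% of 19290 genes (219 higher, 63 lower).

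At JMJ17 the result depended on the libraries used. Its ranks were 44.29 (SET6) and 41.02 (SET7) in SDG2-ZF_rdd, against 78.99 (SET6) and 0 (SET7) in rdd, so the rdd replicates stood at opposite ends of the scale. With all libraries the difference of effects was 5.50 (95% interval −45.8 to 56.8, adjusted p = 0.964). Without SET6 it was 43.4 (adjusted p = 0.0195), and leaving out SDG2-ZF_rdd replicate 1 or rdd replicate 1 alone gave the same 43.4 (adjusted p = 0.0165 and 0.0164). Leaving out SDG2-ZF_rdd replicate 2 or rdd replicate 2, which leaves SET6 only for rdd, it was −32.4. The SET6 rank of 78.99 in rdd rests on 1 of the long peaks described below. In these fits the rdd contrast rests on 1 library a side, and 2035 of 18839 genes passed without SET6.

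**Figure D2:**
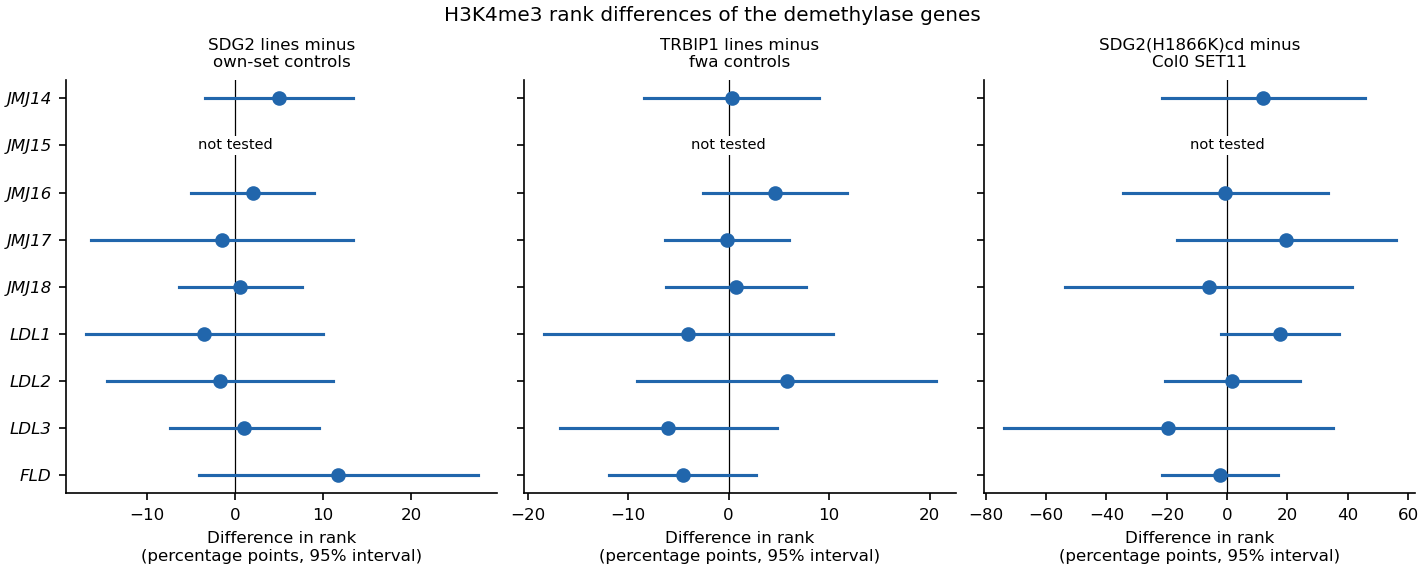
Difference in H3K4me3 rank, in percentage points, for each gene in 3 limma fits, with 95% intervals. Panels show the SDG2 lines minus own-set controls, the TRBIP1 lines minus fwa controls, and SDG2(H1866K)cd minus Col0 of SET11. Every interval includes 0, and the widest belong to SDG2(H1866K)cd. The horizontal scales differ.

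The TRBIP1 lines, which bring a JMJ14 partner to FWA and to off-target sites, did not differ from fwa controls at any member by the test either. JMJ16 had ranks of 44.47 and 46.09 in TRBIP1-ZF, against 44.67 and 43.21 in fwa, and of 47.84 and 54.19 in TRBIP1-dCAS9-MQ1v, against 43.70 and 42.56 in fwaxrdr6. The dCAS9-MQ1v library without TRBIP1 had 47.50. JMJ16 thus overlapped in the zinc finger pair and not in the dCas9 pair, with a fitted difference of 4.61 (SE 2.96, 95% interval −2.55 to 11.8, adjusted p = 0.703). Within 500 bp of the JMJ16 start, which leaves out the upstream peak at AT1G08610, the ranks were 49.40 and 48.75 in TRBIP1-dCAS9-MQ1v, against 48.12 and 46.52 in fwaxrdr6, and the fitted difference over both pairs was 0.74 (95% interval −4.53 to 6.02, adjusted p = 0.942). LDL3 had 83.59 and 61.69 in TRBIP1-ZF, against 81.10 and 81.29 in fwa, and 71.63 and 80.88 in TRBIP1-dCAS9-MQ1v, against 81.18 and 78.14 in fwaxrdr6. Its difference was −5.98 (SE 4.45, 95% interval −16.8 to 4.79, adjusted p = 0.733). FLD had 67.28 and 84.68 in TRBIP1-ZF, against 72.45 and 83.18 in fwa, and 85.06 and 89.07 in TRBIP1-dCAS9-MQ1v, against 97.15 and 91.58 in fwaxrdr6, with a difference of −4.57 (adjusted p = 0.714). JMJ14 itself differed by 0.31 (95% interval −8.39 to 9.01, adjusted p = 0.997). Of all genes, 0.0981% of 18356 passed (15 higher and 3 lower), and 0 of 8 members. In the dCas9 pair 3 of 8 members did not overlap (JMJ14 and JMJ16 higher, FLD lower), against 38.3% of the genes.

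SDG2(H1866K)cd was set against Col0 of SET11 as the fusion with a changed catalytic residue. LDL1 had ranks of 92.29, 88.76, 95.04 and 95.92 in SDG2(H1866K)cd, against 70.86 and 79.89 in Col0, and was the 1 of 8 members without overlap, against 11.5% of the genes. Its difference was 17.6 (SE 8.17, 95% interval −1.88 to 37.1, adjusted p = 0.997). JMJ17 had peaks in 2 of 4 SDG2(H1866K)cd lists, with ranks of 40.70 and 37.45, against none in Col0. No gene passed among 20816 tested (0%), while 331 had an unadjusted p under 0.05, none of them a member. JMJ16 had no peak in 2 of the SDG2(H1866K)cd lists and none in Col0 SET11 replicate 2. Its mean ranks were 14.40 in SDG2(H1866K)cd and 14.94 in Col0. JMJ18 and LDL3 had no peak in 1 of the SDG2(H1866K)cd lists. No SET11 list had a peak within 500 bp of the JMJ16 or the JMJ18 start. The SET11 ranks of JMJ16 and JMJ18 thus came from peaks elsewhere in their regions and do not compare levels at their starts.

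Stretches gained or lost as a whole gave a second view. A stretch of at least 100 bp was called lost where every control library had a peak over it and no line library had one, and gained in the reverse case. In SDG2-ZF against Col0 of SET1, 0 members had a gained stretch, against 5.57% of coding genes, and 2 had a lost one, against 0.485%. Both were inside the gene and over coding exons. That of JMJ18 was chr1:10939626-10939831, 2461 to 2666 bp past the start, under peaks of 2.00- and 3.46-fold in the Col0 libraries. That of JMJ14 was chr4:11009899-11010165, 1341 to 1607 bp past the start, at 2.13- and 2.69-fold. With a minimum of 300 bp neither was called, at a −log10 q of at least 5 only JMJ14 was, and without Col0 SET1 replicate 2 JMJ18 also had a gained stretch.

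These lost stretches were parts of rows of small peaks that lay over exons. In Col0 SET1 replicate 2, the 3 genes of all 27444 with 3 or more peaks of at most 1 kb lying more than 1 kb past the start were JMJ14 (3 peaks), JMJ16 (3) and JMJ18 (4, of which 1 is the 3′ peak at AT1G30800). In the same list 516 such peaks lay in 495 genes, and 83.5% of their bases were exonic. In fwa replicate 1 JMJ14 had 4 and was 1 of 2 genes with 3 or more, and in TRBIP1-ZF replicate 1 JMJ18 had 4, again with the 3′ peak, and was 1 of 3. In Col0 SET11 replicate 1 the same JmjC genes had 3 or more, but so did 368 genes in all. In Myc-JMJ14 libraries of SET6, JMJ14 had 3 or more as well, as 1 of 29 genes in JMJ14xTRBIP1-ZF and 1 of 9 in JMJ14. SDG2-ZF had a single such JMJ14 peak in each library, within 3244 to 3520 bp, at folds of 1.80 to 2.04.

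Each of the 10 peaks of Col0 SET1 replicate 2 at these genes was at least 98.2% exonic. The JMJ18 3′ peak at AT1G30800 began 780 bp past the start of its exon. The starts of the other peaks lay at −12 to 83 bp from the exon start, counted into the exon. The ends of all 10 varied more, and lay 5 to 493 bp short of the exon end. The lost JMJ14 stretch, a whole peak in Col0 SET1 replicate 1, lay 125 and 115 bp inside its exon. Some peaks came close to a whole exon. In Col0 SET1 replicate 2 the JMJ14 peak at 2662 to 3010 bp (2.29-fold) began 15 bp inside and ended 5 bp inside the exon of 2647 to 3015 bp. In fwa replicate 1 the JMJ18 peak at 2335 to 2870 bp (3.16-fold) began 6 bp outside and ended 4 bp inside the exon of 2341 to 2874 bp, and in TRBIP1-ZF replicate 1 the JMJ18 peak over this exon was 2357 to 2856 bp (2.63-fold). The borders of these exons are printed because these closest peaks end near them, with exon bases in capitals, intron bases in lower case, and each read along the gene.
JMJ14 exon start, chr4:11011175-11011234, plus strand: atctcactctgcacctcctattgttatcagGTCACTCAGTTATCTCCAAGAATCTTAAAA
JMJ14 exon end, chr4:11011544-11011603, plus strand: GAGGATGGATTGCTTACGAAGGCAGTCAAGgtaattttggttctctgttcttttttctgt
JMJ18 exon start, chr1:10939922-10939981, minus strand: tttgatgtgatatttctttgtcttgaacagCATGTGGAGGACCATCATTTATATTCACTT
JMJ18 exon end, chr1:10939388-10939447, minus strand: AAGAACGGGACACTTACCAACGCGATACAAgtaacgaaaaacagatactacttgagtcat
Beyond the first 1 kb, exons make up 72.1% of JMJ14, 64.9% of JMJ16 and 83.9% of JMJ18, the shares to set beside those of the peaks. These genes were singled out after their values had been seen, and the cause of the pattern was not tested.

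**Figure D3:**
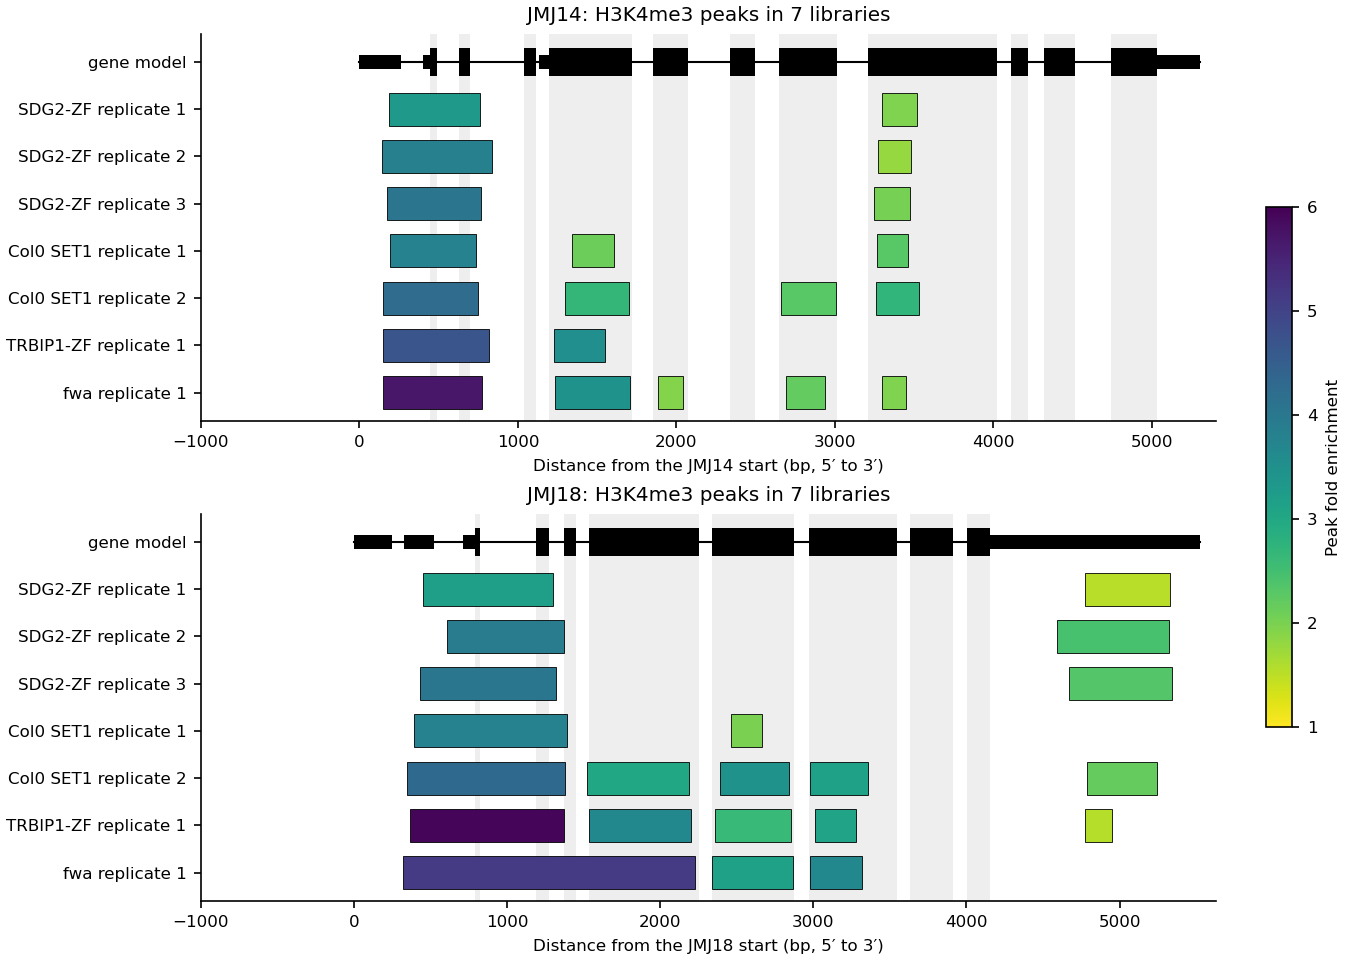
H3K4me3 peaks along JMJ14 and JMJ18 in 7 libraries of SET1 and SET8, by distance from the start in bp. Boxes are peaks coloured by fold, the gene model is on top with coding parts tall, and grey bands mark coding parts. Beyond the start peak, most boxes of the Col0, TRBIP1-ZF and fwa libraries lie within grey bands (the fwa start peak at JMJ18 runs on over a coding exon), while SDG2-ZF has 1 internal JMJ14 box per library and, at JMJ18, only the box over the 3′ end.

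Elsewhere few members had a gained or lost stretch. SDG2-ZF_rdd against rdd had 1 member with a gained stretch, JMJ18, against 7.32% of coding genes. It lay at chr1:10936977-10937654, inside AT1G30800 and shortly past the start of that gene (3.71- and 3.82-fold). In that comparison 0% of coding genes had a lost stretch. Without rdd replicate 1 a gained stretch was also found at JMJ17. SunTag-SDG2_rdr6 against rdr6, SDG2(H1866K)cd against Col0, TRBIP1-ZF against fwa and TRBIP1-dCAS9-MQ1v against fwaxrdr6 had 0 members with either, against 3.2%, 1.59%, 1.47% and 1.73% of coding genes.

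Genes that work with the demethylases or against them gave a frame for these counts. In the lists of JMJ14 partners (6 genes), H3K4 methyltransferases and COMPASS subunits (10), other JmjC proteins (12) and further genes of the autonomous flowering pathway (6), 0 passed any of the fits. Gained H3K4me3 stretches were found at SDG2 in SDG2-ZF, SunTag-SDG2_rdr6, SDG2-ZF_rdd and SDG2(H1866K)cd, at lowest folds of 1.43, 2.86, 4.48 (with a second stretch at 1.76) and 1.39. SDG2 is the gene whose catalytic domain all those constructs carry. TRB2, a telobox-binding partner of JMJ14, had one in SDG2-ZF (1.85-fold) and in SDG2-ZF_rdd (1.71-fold). In SDG2-ZF that was 1 of 6 partners and 1 of 10 methyltransferase genes, where 5.57% of coding genes had a gained stretch. In SunTag-SDG2_rdr6 and SDG2(H1866K)cd, 3.2% and 1.59% of coding genes had a gained or lost one. In SDG2-ZF_rdd gained stretches were also found at ATX3 (1.81-fold), a methyltransferase, at JMJ27 (2.50-fold) and REF6 (2.01-fold), JmjC demethylases of H3K9 and H3K27, and at FLK (1.93-fold) and LD (1.68-fold) of the autonomous pathway. By list these were 1 of 6 partners, 2 of 10 methyltransferase genes, 2 of 12 JmjC genes and 2 of 6 autonomous genes, where 7.32% of coding genes had one.

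Spearman correlations of the other members' H3K4me3 ranks with that of JMJ14 over the 29 lists, given as a description of libraries that share sets, were between −0.27 (LDL3) and 0.276 (JMJ18). The 3 genes of 17712 most like JMJ14 were NRT1.1 (0.667), which encodes a nitrate transporter, GLY1 (0.633), a glycerol-3-phosphate dehydrogenase, and AT5G17660 (0.592).

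The other chromatin features parted the genes in a different order. H3K14ac, an acetylation mark of active starts, was found in all 6 lists at LDL3 and FLD, in 5 at JMJ14, JMJ16, JMJ18, LDL1 and LDL2, in 4 at JMJ17 and in 0 at JMJ15. Its median rank was highest at FLD (90.66) and LDL2 (87.78). The list of rdd replicate 2, with 5635 peaks, held only LDL3 (86.22) and FLD (97.14). SDG2-ZF against Col0 gave 0 of 8 members past the threshold (0% of 20582 genes; 1918 genes at an unadjusted p under 0.05, 0 of them members). JMJ18 had the lowest adjusted p, with ranks of 54.67 and 55.11 in SDG2-ZF, against 48.99 and 49.87 in Col0 (5.46, 95% interval −4.96 to 15.9, adjusted p = 0.705). These ranks mix the JMJ18 peak past the start, which was the highest in SDG2-ZF (3.07- and 3.16-fold, against 2.09- and 2.79-fold in Col0), with the 3′ peak at AT1G30800, which was the highest in Col0 (2.83- and 3.07-fold in SDG2-ZF, against 2.58- and 2.82-fold in Col0). No member had a gained or lost stretch, against 7.36% of coding genes.

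H2A.Z, a variant placed at starts and over the bodies of genes that respond to the environment, was the only feature found at JMJ15. JMJ15 (chr2:14711880-14716634, minus strand) had H2A.Z ranks of 60.44, 51.53 and 0 in SDG2-ZF, against 76.12 and 51.53 in Col0, and of 73.48 in SDG2-ZF_rdd, against 55.48 in rdd. Only SDG2-ZF replicate 3, the smallest H2A.Z list with 12217 peaks, lacked it. The peaks lay over the gene body, the first at a median of 866 to 1459 bp in 6 of 7 lists, and 1 list (rdd) also had a peak upstream, at −690 to −497 bp. Of the 4048 coding genes without H3K4me3 in any list, 880 (21.7%) had H2A.Z in at least 6 of 7 lists, and 518 of those (58.9%) also had no H3K14ac, as JMJ15 did. Of the 23396 genes with H3K4me3 in at least 1 list, 60.5% had H2A.Z in at least 6.

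JMJ18 had the highest median H2A.Z rank of the 9, 96.35, with ranks of 88.98 to 99.96. Without SET6 its ranks were 88.98 to 98.87, with a median of 94.30. In both Col0 libraries JMJ16 ranked above it. The JMJ18 H2A.Z peaks outside SET6 lay over the 3′ stretch at AT1G30800 and, in 5 lists, upstream of the start (median −1272 to −780 bp). That upstream stretch lies inside the neighbour AT1G30814, so outside SET6 the JMJ18 ranks rest on peaks over neighbouring genes. In SDG2-ZF JMJ18 had 94.30, 98.87 and 96.35, against 89.35 and 88.98 in Col0 (7.35, 95% interval −16.5 to 31.2, adjusted p = 0.946). JMJ14 had H2A.Z upstream in 6 of 7 lists (median −963 to −626 bp), inside the neighbour AT4G20390, and past the start in 2. JMJ16 had it in 5 of 7, only upstream and next to AT1G08610. JMJ16 ranked 74.33, 54.96 and 0 in SDG2-ZF, against 89.86 and 91.79 in Col0 (−47.7, SE 23.3, 95% interval −106 to 10.5, adjusted p = 0.904). JMJ18 (higher) and JMJ16 (lower) were the 2 of 7 members tested whose groups did not overlap, against 20.4% of the genes. SDG2-ZF replicate 3, the smallest H2A.Z list with 12217 peaks, lacked H2A.Z at 7 of the 9 genes, JMJ16 among them. The fit called 0% of 22286 genes, 1147 having an unadjusted p under 0.05, none of them a member, and no member had a gained or lost stretch, against 2.15% of coding genes. LDL1 had a peak in 7 of 7 lists, at ranks of 58.98 to 86.48, LDL2 in 6, FLD in 5, JMJ17 in 3 and LDL3 in 2. Without SET6, JMJ17 had one in 1 of 5 lists and LDL3 in 0.

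**Figure D4:**
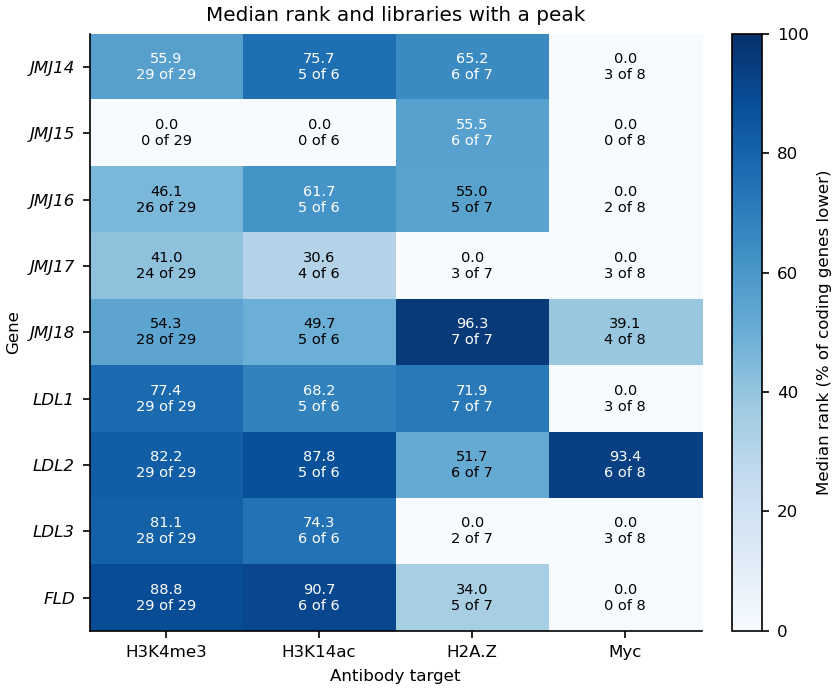
Median rank (colour and upper number, percent of coding genes lower in the same list) and number of libraries with a peak (lower number) for each gene and antibody target. JMJ15 has 0 for H3K4me3 and H3K14ac and 55.5 for H2A.Z, and FLD has 88.8 for H3K4me3 against 34.0 for H2A.Z. LDL2 has peaks in 6 of 8 Myc libraries, of which the 3 Myc-JMJ14 ones lie over the start of AT3G13680.

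Myc ChIP-seq showed where tagged JMJ14 and tagged ROS1, a DNA demethylase, were found, and LDL2 was the member with a Myc peak in most libraries, 6 of 8, or 4 of 5 without SET6. In Myc-JMJ14 plants with TRBIP1-ZF, LDL2 had folds of 3.23 and 3.50, against 3.73 in Myc-JMJ14 plants without it, and no peak in the untagged Col0 library. The peaks lay at the 3′ end of LDL2, and the stretch shared by the 3 lists was chr3:4478662-4478906 (245 bp). It spans the gap to AT3G13680, a gene on the same strand, and covers the start of that gene, 3016 bp past the LDL2 start. Peaks there could not be told apart by gene. The bases of that gap are printed because no other member had a peak in all 3 Myc-JMJ14 lists.
Gap between LDL2 and AT3G13680, chr3:4478752-4478872, minus strand: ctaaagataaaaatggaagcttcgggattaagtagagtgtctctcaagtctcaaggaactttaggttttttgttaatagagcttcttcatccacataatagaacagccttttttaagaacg
In Myc-ROS1 plants LDL2 had its peak upstream of the start instead (median −839 to −152 bp), with 3.56- and 2.62-fold in ROS1xSDG2-ZF, against 3.97-fold and no peak in ROS1. This was the 1 member tested, with ranks of 93.71 and 92.48 in ROS1xSDG2-ZF, against 98.72 and 0 in ROS1 (43.7, 95% interval −86.2 to 174, adjusted p = 1). No gene of 9316 passed (0%), with 330 at an unadjusted p under 0.05, and no member had a gained or lost stretch, against 1.75% of coding genes.

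In JMJ14xTRBIP1-ZF against JMJ14, where the control is 1 library, LDL1 had a gained stretch (chr1:23264752-23264898, 147 bp, 2323 to 2469 bp past its start, 2.76- and 3.07-fold), against 3.52% of coding genes. JMJ14 had a lost one (chr4:11013272-11013419, 148 bp, near the 3′ end of its coding part, 2.38-fold), against 0.514%. Neither was called at a minimum of 300 bp, and LDL1 was not called at a −log10 q of at least 5 or with equal numbers of peaks. Without JMJ14xTRBIP1-ZF replicate 2, 3 members had a gained stretch, and without replicate 1, 4 had a lost one. Among partners of JMJ14, NAC050 had a gained stretch. A single lost stretch (chr3:3267351-3267609, 2.58-fold) fell in the regions of both NAC050 and NAC052. Myc peaks at the JMJ14 gene itself came from SET6 libraries only: 2.30-fold in JMJ14xTRBIP1-ZF, 2.66-fold in JMJ14 and 3.65-fold in the untagged Col0 library. The untagged library had the highest of these folds, so tagged protein and background cannot be told apart there. FLD and JMJ15 had no Myc peak in any of the 8 lists.

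In the SET6 libraries some members lay under very long peaks. Over the genome, peaks of 4 kb or more numbered 2 to 13 in a SET6 list and 0 to 25 in the other lists. At member genes they numbered 16 in the 7 SET6 lists and 0 in the other 43, and lay at JMJ18 (7 lists), LDL3 (5) and JMJ17 (4). At JMJ18 the peak folds were 6.11 to 36.10, at LDL3 3.16 to 24.43 and at JMJ17 3.18 to 18.73. These peaks occurred with antibodies to H3K4me3, to H2A.Z and to Myc. In the untagged Myc Col0 library, whose list has 808 peaks, JMJ18 ranked 3rd by fold (36.10), LDL3 5th (24.43) and JMJ17 11th (11.18). The list was led by UBQ10 (53.24) and LBD22 (38.73), with ACT2 4th (34.41), HAG1 6th (20.42) and TRBIP1 (AT4G35510) 7th (18.09). SPA1 was 8th and 9th (17.84 and 17.16) and MBD6 10th (16.16).

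**Figure D5:**
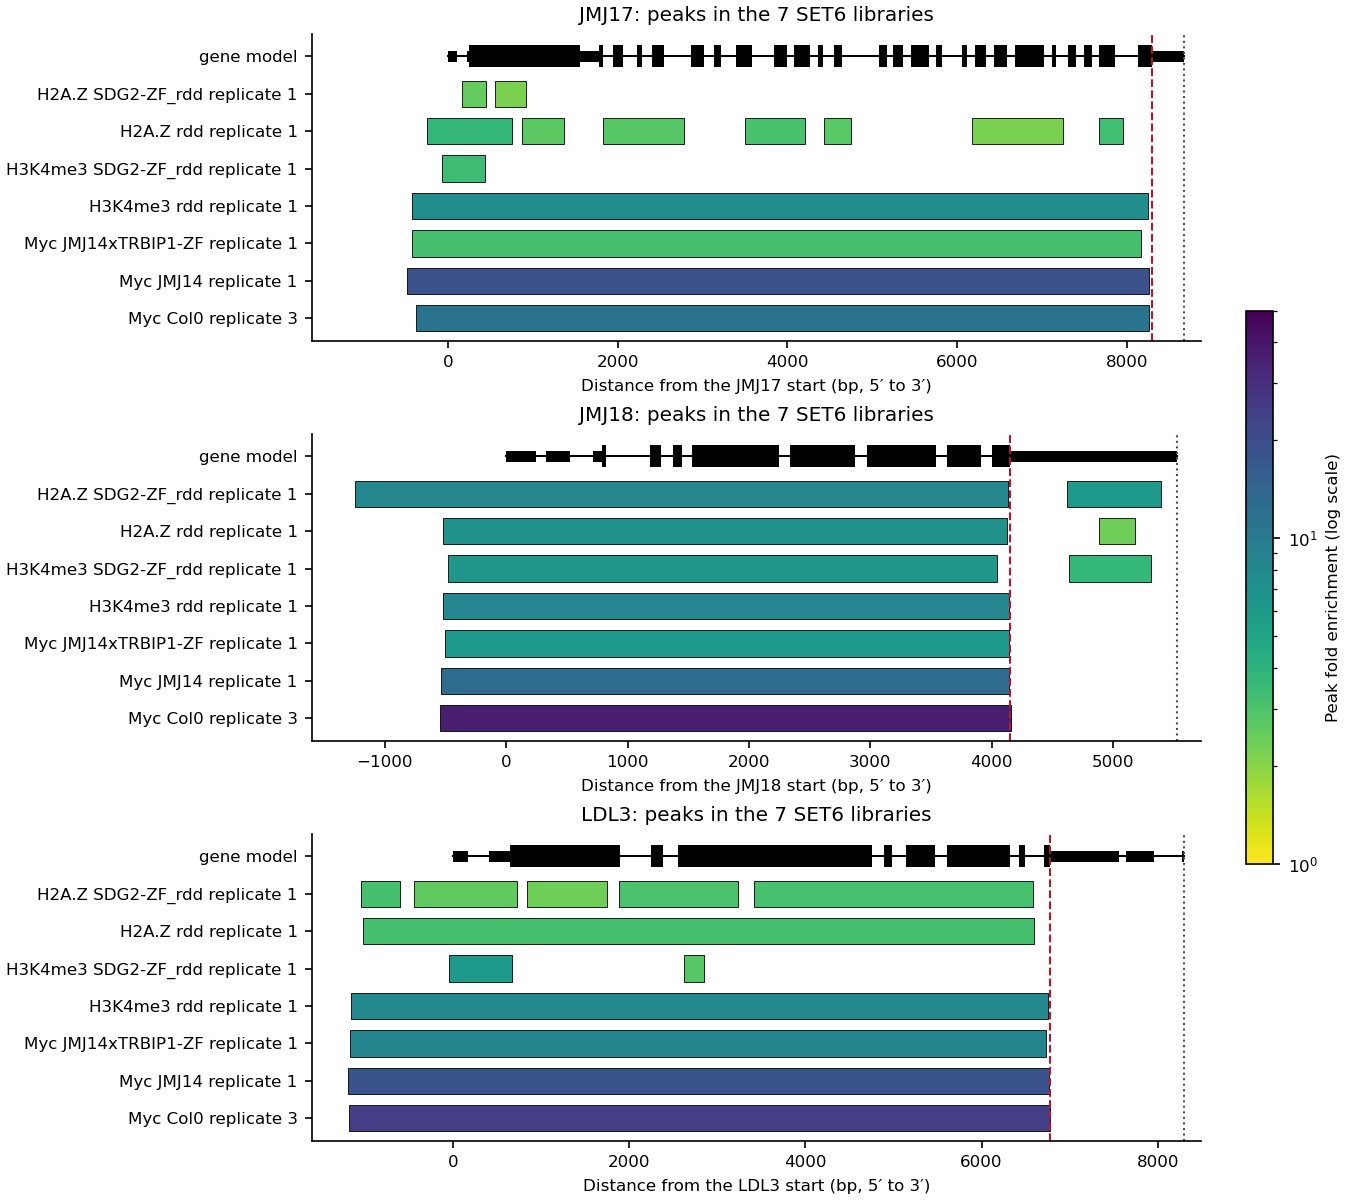
Peaks along JMJ17, JMJ18 and LDL3 in the 7 SET6 libraries, by distance from the start in bp. Boxes are peaks coloured by fold on a log scale, the red dashed line is the end of the coding part and the grey dotted line the end of the gene. Peaks of 4 kb or more begin upstream and end near the red line, at folds up to 36.10.

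These long peaks began upstream and ended where the coding part ends. At JMJ18 they began at −1248 to −476 bp and ended at −108 to 6 bp of the end of the coding part (median −12 bp), which lies 4153 bp from the start of a gene that goes on to 5527 bp. At LDL3 they began at −1188 to −1026 bp and ended at −186 to −1 bp of it (median −27 bp), with the coding part ending at 6776 bp and the gene at 8292 bp. At JMJ17 they began at −482 to −381 bp and ended at −122 to −27 bp of it (median −36 bp), with 8294 bp and 8678 bp. Introns were covered as well as exons. In 2 further cases shorter peaks lined up over the same span: H2A.Z in SDG2-ZF_rdd had 5 at LDL3, from −1046 to 6587 bp, and H2A.Z in rdd had 7 at JMJ17, from −242 to 7958 bp. The last coding bases are printed, with the stop codon in capitals, to show where the peaks ended.
JMJ17, chr1:23544938-23544967, minus strand: gttcatattcttccctggtttttcactTAA
JMJ18, chr1:10938139-10938168, minus strand: ggaaaacttttcggagtagatttgatgTAA
LDL3, chr4:9224735-9224764, plus strand: atggtgatacctcaagttccaaaacctTGA
The cause of these peaks was not tested. H3K4me3 at JMJ18 in SDG2-ZF_rdd replicate 1 (rank 79.76) and at JMJ17, JMJ18 and LDL3 in rdd replicate 1 (ranks of 78.99, 86.35 and 83.19), the SET6 H2A.Z ranks of JMJ18 and, in rdd, of LDL3, and the SET6 Myc ranks of JMJ17, JMJ18 and LDL3 rest on them. Without SET6, Myc peaks were found in 0 of 5 lists at JMJ17 and LDL3 and in 1 at JMJ18. In SET7, H3K4me3 in rdd replicate 2 had no JMJ17 peak and a JMJ18 rank of 59.85.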

How the data were processed

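Peak lists deposited for 50 ChIP-seq libraries were used. The authors trimmed reads with Trim Galore 0.6.5, aligned them to TAIR10 with Bowtie2 2.1.0, used SAMtools 1.9 and called peaks for each library with MACS2 2.2.1; no control library is named for the calls. Each deposited peak has a fold enrichment (ratio over the local background) and a −log10 p and −log10 q, as the authors' caller gave them. Of 863269 lines, 1490 organelle lines and 10375 repeated intervals (in 23 lists) were dropped, leaving 851404 peaks. Gene spans, exons and sequences came from the RefSeq TAIR10.1 assembly.

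A gene's value was its highest fold over the span and 1000 bp upstream, turned into a within-list rank. Ranks were compared with limma 3.58.1 (R 4.3.3; two-sided, genes with a peak in at least 2 libraries, Benjamini-Hochberg adjustment, threshold 0.05, set as a term in the SDG2, TRBIP1 and background fits and not in the H2A.Z and Myc fits), which was tested on simulated data. Stretches called gained or lost (at least 100 bp, no overlap by 1 bp in the other group) got no test. Alternatives were a −log10 q of 5 or 2, equal numbers of peaks, windows of 500 bp around starts, region coverage, other minimums, a replicate block, permutation and leaving out each library. The 9 genes are all named. Of other lists, up to 3 genes with a gained or lost stretch were named, by lowest fold, and the 3 genes most like JMJ14. Genes, lists and tests were chosen with earlier results of these data known. The 41 samples without a peak list were not analysed here. Sequencing depth was not used, since the lists hold no read counts, and ranks near 0 or 100 are bounded, so differences there are compressed.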

Additional observations from a re-analysis of the deposited data

Results flagged for a closer look

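In the 4 SDG2(H1866K)cd libraries, FLD had an H3K4me3 rank of 91.42 in replicate 2, while the other 3 had 83.95, 84.34 and 84.42. The gap to the nearest was 0.937 of the range, above the 95% limit of Dixon's test for 4 samples. Chance flags about 1 in 20 groups, and 16 tests were made in this group, on the rank and the fold of 8 genes. By fold, FLD had 0.467 and did not pass. The value of replicate 2 lies within the range of FLD in the other H3K4me3 libraries (39.39 to 97.35).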

How the results depend on the processing

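Of 725 alternative values for the 48 gene-level differences, 719 stayed on the same side of the threshold and 6 did not. All 6 were JMJ17 in the comparison of SDG2-ZF effects between rdd and Col0 (5.50 with all libraries), where 1 of the 9 genes then passed. It was 43.4 without SET6 (added after seeing the data), 47.8 with start windows and without SET6 (adjusted p = 0.00945), and −32.4 to 43.4 over the fits that leave out one library; the sign turned where a SET7 library was left out. The sign differed in 106 alternatives, none of the others past the threshold. Genome-wide calls varied over 0 to 419 (SDG2 lines), 0 to 50 (TRBIP1 lines), 0 to 159 (SDG2(H1866K)cd), 0 to 653 (H3K14ac), 0 to 502 (H2A.Z), 0 to 456 (Myc) and 0 to 2152 (difference of effects), the counts of members called being 0 otherwise. Members with a lost stretch in SDG2-ZF against Col0 numbered 1 at a −log10 q of 5 and 0 at 300 bp, with 0 to 1 gained when one library was left out. In SDG2-ZF_rdd against rdd 2 had a gained stretch with 50% cover, 1 to 2 with one library left out and 2 without SET6. Leaving out one library gave 0 to 4 lost in SDG2(H1866K)cd, 0 to 1 lost in TRBIP1-ZF, 0 to 2 lost for H2A.Z, 0 to 2 gained and 0 to 1 lost for Myc-ROS1, and 1 to 3 gained and 1 to 4 lost for Myc-JMJ14, which had 0 gained at a −log10 q of 5, with equal numbers of peaks and at 300 bp, and 0 lost at 300 bp. The cause was not tested.

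Same-numbered libraries correlated by 0.002 to 0.561 in their deviations, and the 0.561 (Myc) coincides with sets, so the numbers were taken as names. With a replicate block 44 genes passed in the SDG2 lines, 17 in the TRBIP1 lines and 0 elsewhere; 0 of the members passed. Each list's threshold limits what an absent peak shows.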
